A study of Mus musculus with 8 samples.

Results

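The genes described here are 34 genes of glycolysis and of the response to low oxygen, taken by their symbols from a table of 24062 genes that compares RNA of NIH3T3 clones. NIH3T3 is an immortalised mouse embryo fibroblast line. The clones labelled 14-3-3ε, numbers 10 and 12, carried 14-3-3ε in the p3xFLAG-CMV-10 plasmid, in which a viral CMV promoter drives a FLAG-tagged protein, and the clones labelled control, numbers 2 and 3, carried the control vector. The labels describe growth in DMEM with 10% fetal bovine serum, selection in 800 µg/mL of G418 for the transfected cells and colonies picked singly, so each group is 2 clones. No oxygen level is given and no clone is labelled as hypoxic. Each clone was measured by RNA-seq and by RRBS, bisulfite sequencing of MspI fragments that favours CpG-rich DNA, giving 8 samples. All 34 genes were listed, and 28 had an adjusted p-value and are called tested here. Aldoc, Car9, Eno1, Epas1, Slc16a3 and Slc2a3 were not tested, with mean normalized counts of 15.7 for Aldoc and less for the other five in the authors' deposited table.

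Glycolysis turns glucose into pyruvate in a chain of cytosolic reactions, and lactate dehydrogenase then converts pyruvate into lactate, which leaves the cell through monocarboxylate transporters. Hypoxia-inducible factors (HIF) are pairs of an oxygen-sensitive alpha subunit and the stable subunit Arnt. In normal oxygen, prolyl hydroxylases mark the alpha subunit for destruction by the Vhl ubiquitin ligase. In low oxygen the pair binds hypoxia response elements with the core ACGTG or GCGTG and raises transcription of glucose transporters, most glycolytic enzymes and genes such as Vegfa and Bnip3. Cultured fibroblasts also use glycolysis in normal oxygen, and Myc and growth factor signalling raise many of the same genes.

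Both tables hold the authors' comparison with no value per clone, so clones cannot be shown singly. Positive values were read as higher in 14-3-3ε clones. The tables do not state the sign, and every direction below rests on that reading. Ywhae, the mouse gene of 14-3-3ε, was not called and so does not check the sign (log2 fold change, or log2FC, -0.03, standard error or SE 0.18 and adjusted p 0.942 in the authors' deposited table). All 10 fibroblast markers examined were tested, with mean normalized counts between 4843 and 424650 in the authors' deposited table. Of 20 markers of epithelium, endothelium, blood, muscle and adipocytes, 17 had no adjusted p and mean normalized counts of at most 18.6, while the authors' deposited table gave Krt8, Cd68 and Des mean normalized counts of 51.1, 110 and 58.9. The fibroblast markers themselves moved. At an adjusted p under 0.05, 6 of 10 were higher and none lower, against 6.15% and 4.74% of all tested genes. Des fell by 1.28 as log2 in the authors' deposited table. Whether these markers' changes had a part in the results below was not tested. In RNA from a whole culture, fewer cells expressing a gene and less RNA per cell cannot be told apart. Adjusted p-values rest on 2 clones a group and set the fold change against the spread between clones, which 2 clones estimate poorly.

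By the authors' adjusted p under 0.05, from a table whose headers are those of DESeq2, 8 of 28 tested members fell, which is 28.6%, and the share that fell among all 11482 tested genes was 4.74%. No member rose, while 6.15% of all tested genes did, and at an unadjusted p under 0.05 the counts were 10 lower members and 1 higher. Of the 17478 genes with a p-value, 1399 were lower and 1426 higher at that threshold. The fall was steepest for Hk2, the hexokinase isoform that is inducible and typical of muscle, fat and cancer cells. Its level in 14-3-3ε clones was 46.4% of that in control clones (log2FC -1.11, SE 0.22 and adjusted p 2.64e-05 in the authors' deposited table). It stood at place 85 when all tested genes were ordered from the lowest log2 fold change. Slc2a1, the gene of the main glucose transporter of fibroblasts, Glut1, reached 51.4% of its control level, with a log2FC of -0.96, SE 0.19 and adjusted p 2.68e-05 in the authors' deposited table. The 8 genes that fell were Hk2, Slc2a1, Pfkp, Bnip3, Ldha, Pfkl, Pgam1 and Aldoa, and their mean normalized counts lay between 1015 and 23768 in the authors' deposited table.

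The promoters of the genes that fell are shown for 6 of them as examples, because these stretches hold the core letters of the hypoxia response element and, in 4 of them, cytosines within those letters that RRBS read. Each is the 250 bases before the annotated start, read 5′ to 3′ on the gene's strand, from RefSeq promoters of build GRCm38.p6, the assembly of mm10. Capitals mark ACGTG and GCGTG and their reverse complements CACGT and CACGC. These letters are not particular to the genes that fell, since 28 of the 31 members with such stretches had them. The stretch of Hk2 is chr6:82774455-82774704 on the minus strand, that of Slc2a1 chr4:119108495-119108744 on the plus strand and that of Pfkl chr10:78009808-78010057 on the minus strand. Pgam1 is shown at chr19:41911621-41911870 on the plus strand, Ldha at chr7:46845554-46845803 on the plus strand and Bnip3 at chr7:138909507-138909756 on the minus strand.
Hk2: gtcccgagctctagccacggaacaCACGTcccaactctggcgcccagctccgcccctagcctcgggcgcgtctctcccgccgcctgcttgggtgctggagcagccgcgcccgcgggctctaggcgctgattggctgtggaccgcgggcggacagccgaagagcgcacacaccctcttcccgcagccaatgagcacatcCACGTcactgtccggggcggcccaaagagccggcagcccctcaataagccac
Slc2a1: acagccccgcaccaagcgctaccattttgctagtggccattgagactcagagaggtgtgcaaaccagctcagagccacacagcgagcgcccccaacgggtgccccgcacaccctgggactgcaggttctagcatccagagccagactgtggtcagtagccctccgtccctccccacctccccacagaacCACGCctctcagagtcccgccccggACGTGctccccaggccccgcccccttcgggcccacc
Pfkl: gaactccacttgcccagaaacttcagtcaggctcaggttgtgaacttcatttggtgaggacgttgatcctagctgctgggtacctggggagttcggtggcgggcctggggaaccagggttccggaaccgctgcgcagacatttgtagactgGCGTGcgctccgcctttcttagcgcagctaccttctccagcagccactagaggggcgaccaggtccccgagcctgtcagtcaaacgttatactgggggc
Pgam1: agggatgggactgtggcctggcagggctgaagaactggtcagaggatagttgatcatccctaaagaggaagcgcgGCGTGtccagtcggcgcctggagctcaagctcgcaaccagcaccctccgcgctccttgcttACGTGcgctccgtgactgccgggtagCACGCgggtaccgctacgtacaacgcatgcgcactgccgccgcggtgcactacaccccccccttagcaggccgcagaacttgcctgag
Ldha: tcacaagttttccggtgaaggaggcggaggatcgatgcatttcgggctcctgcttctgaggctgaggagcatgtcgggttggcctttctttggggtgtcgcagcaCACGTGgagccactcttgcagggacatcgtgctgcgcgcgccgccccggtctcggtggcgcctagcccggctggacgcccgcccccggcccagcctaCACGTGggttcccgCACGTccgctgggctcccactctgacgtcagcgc
Bnip3: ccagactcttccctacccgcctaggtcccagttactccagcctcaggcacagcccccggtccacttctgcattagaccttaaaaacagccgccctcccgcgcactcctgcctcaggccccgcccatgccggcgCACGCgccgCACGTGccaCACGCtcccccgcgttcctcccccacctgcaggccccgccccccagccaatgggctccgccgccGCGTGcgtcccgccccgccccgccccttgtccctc

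Among the carriers, the fall was seen in Slc2a1. Slc16a1, the gene of the monocarboxylate transporter Mct1, was not called, with a log2FC of 0.11, a wide SE of 0.40 and adjusted p 0.906 in the authors' deposited table. The other glucose transporter in the set, Slc2a3 (Glut3), and the lactate exporter typical of hypoxic cells, Slc16a3 (Mct4), were close to undetected, with mean normalized counts of 6.47 and 0.270 in the authors' deposited table. Of the carriers, therefore, 1 of 2 tested fell, against 4.74% of all tested genes, a count too small to read as a result about carriers.

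In the upper part of glycolysis, where glucose is phosphorylated and split, 4 of 9 tested genes fell, against 4.74% of all tested genes. The fold change was negative in all 9, against 50.2% of all tested genes. Of the 3 phosphofructokinase genes, which encode the enzyme of the committed step, 2 fell. Pfkp, the platelet-type isoform, was at 57.3% of the control level, with a log2FC of -0.80 (SE 0.20, adjusted p 0.00185; authors' deposited table). Pfkl, the liver-type isoform, was at 61.1%, with a log2FC of -0.71 (SE 0.23, adjusted p 0.0227; authors' deposited table). Pfkm, the muscle-type isoform, had a log2FC of -0.25 (SE 0.19, adjusted p 0.436; authors' deposited table) and was not called. Aldoa, the main aldolase gene, was at 66.6% of its control level, with a log2FC of -0.59 (SE 0.20, adjusted p 0.0390; authors' deposited table).

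Hk1, the hexokinase gene active in most tissues, was not called beside the fall of Hk2. It was at 95.4% of its control level, with a log2FC of -0.07 (SE 0.19, adjusted p 0.875; authors' deposited table). The 95% interval from that standard error runs from 73.9% to 123% of the control level, and that of Hk2 from 34.5% to 62.5%, as computed from the authors' deposited table. These intervals do not overlap, although the difference between both genes was not tested. The remaining upper genes were not called. Gpi1, the isomerase after hexokinase, had a log2FC of -0.44 (adjusted p 0.178) and Pfkfb3, whose product makes an activator of phosphofructokinase, one of -0.50 (adjusted p 0.401; authors' deposited table). Tpi1, the triosephosphate isomerase gene, had a log2FC of -0.24 (adjusted p 0.581; authors' deposited table).

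In the lower part, from glyceraldehyde phosphate to lactate, 2 of 8 tested genes fell, against 4.74% of all tested genes. The difference between the upper and lower parts was not tested, and both hold few genes. Ldha, whose product favours lactate formation, was at 61.1% of the control level, with a log2FC of -0.71 (SE 0.20, adjusted p 0.00718; authors' deposited table). Pgam1, a phosphoglycerate mutase gene, was at 66.2%, with a log2FC of -0.60 (SE 0.17, adjusted p 0.0102; authors' deposited table). Pgk1, the X-linked phosphoglycerate kinase gene, was not called, with a log2FC of -0.56 (SE 0.23, adjusted p 0.0944; authors' deposited table). Ldhb, whose product favours the return of lactate to pyruvate, was not called and had the opposite sign to Ldha, with a log2FC of 0.24 (SE 0.25, adjusted p 0.613; authors' deposited table). The difference between Ldha and Ldhb was not tested.

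Gapdh, the dehydrogenase gene often used as a reference, the pyruvate kinase gene Pkm and the neuronal-type enolase gene Eno2 were not called. They had log2FC values of -0.19 (adjusted p 0.667), -0.28 (adjusted p 0.488) and 0.28 (adjusted p 0.549; authors' deposited table). Pdk1, a pyruvate dehydrogenase kinase gene and a well-known HIF target, had a log2FC of -0.02 (SE 0.27, adjusted p 0.981, authors' deposited table). Eno1, the main enolase gene of most cells, was listed with a mean normalized count of only 2.74, while the gene of similar sequence Eno1b had 5830 in the authors' deposited table. How reads of this pair were assigned is uncertain, and Eno1b had a log2FC of -0.47 (SE 0.22, adjusted p 0.156; authors' deposited table). Several other glycolytic genes have processed pseudogenes in the mouse genome, and the handling of reads shared with them was not stated.

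**Figure D1:**
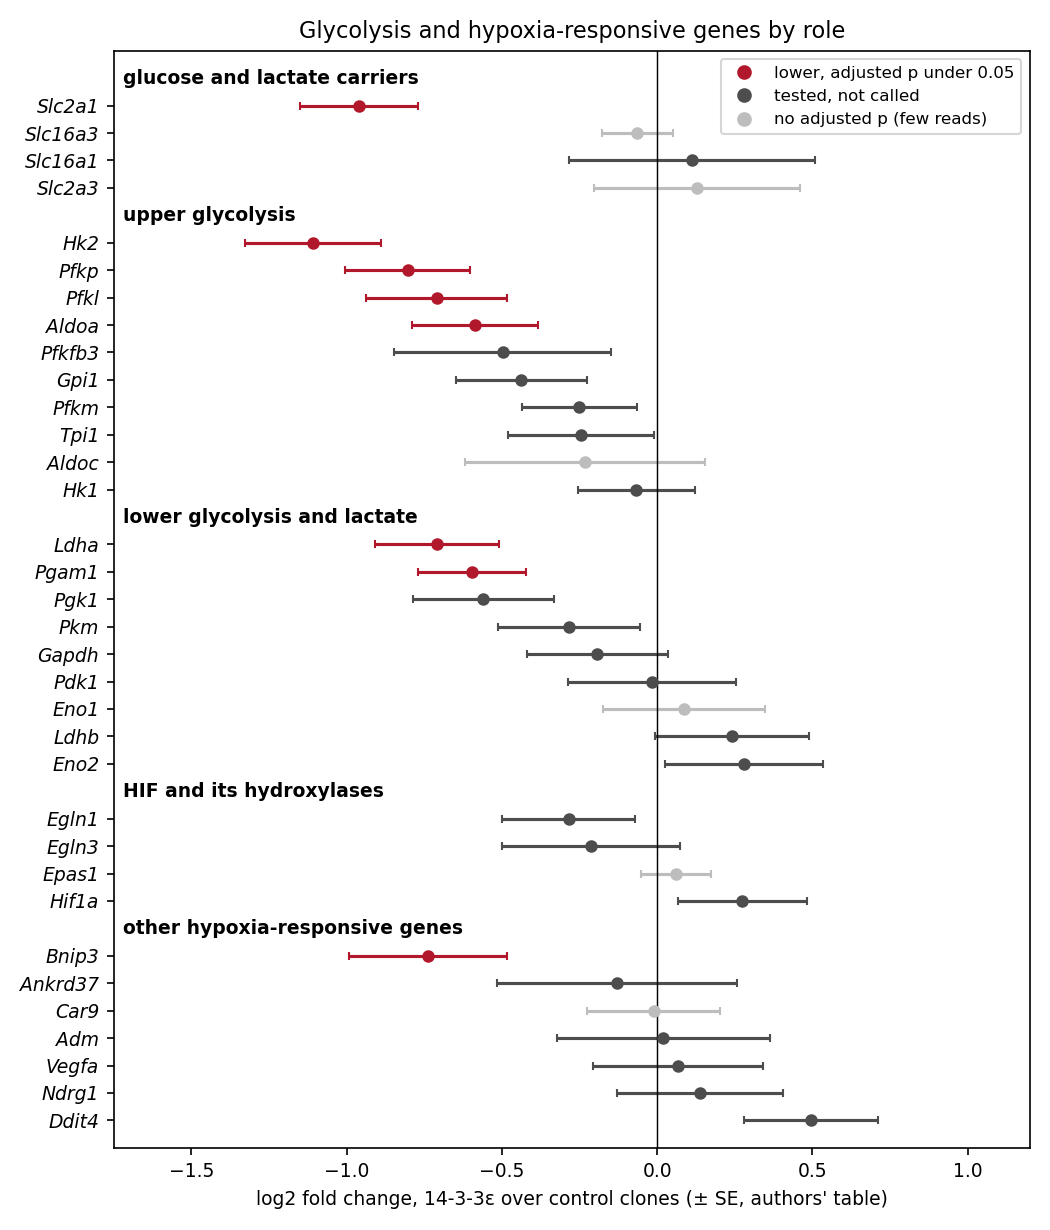
Log2 fold change of each of the 34 genes, 14-3-3ε over control clones, with the authors' standard error as bars, grouped by role. Red points mark the 8 genes that fell at an adjusted p under 0.05, dark grey points the 20 tested genes that were not called and light grey points the 6 without an adjusted p.

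Among the enzymes of the chain from hexokinase to lactate dehydrogenase, 6 of 15 tested genes fell, against 4.74% of all tested genes. Of these 15, 13 had a negative fold change. Their median log2 fold change was -0.44, against -0.00 over all tested genes, which have 50.2% negative values in the authors' deposited table. The other 13 tested members had a median of -0.02, with 2 lower. Many of the enzymes are abundant transcripts, and abundant transcripts as a whole leaned lower. Among 387 tested genes with a mean normalized count of at least 10000, 11.1% fell, 7.75% rose and 63.0% had a negative fold change. Their median log2 fold change was -0.18, as counted in the authors' deposited table. All 7 members at that level (Gpi1, Aldoa, Gapdh, Pgk1, Pgam1, Pkm and Ldha) had negative values, with a median of -0.56 and 3 called in the authors' deposited table. From 1000 to 10000, 5 of 18 members fell, namely Slc2a1, Hk2, Pfkl, Pfkp and Bnip3, against 5.97% of the 5160 tested genes at that level, whose median was -0.03 in the authors' deposited table. The part of transcript abundance in the fall was not tested further.

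**Figure D2:**
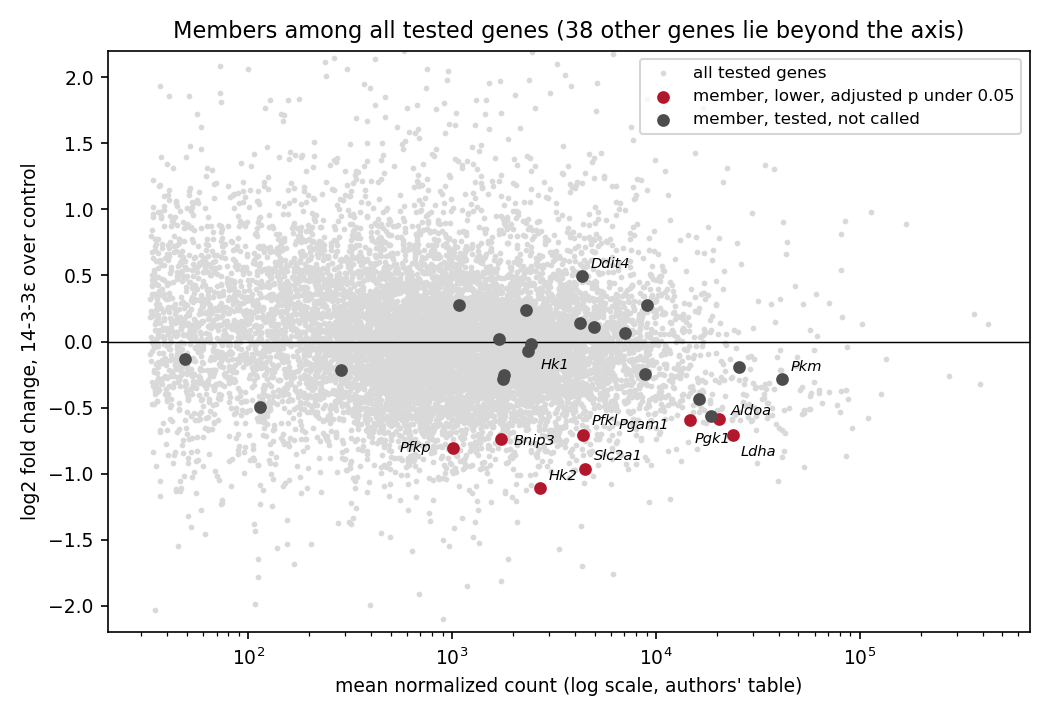
Log2 fold change, 14-3-3ε over control clones, against the mean normalized count on a log axis for all tested genes (light grey) and the 28 tested members (dark grey, or red where lower at an adjusted p under 0.05). Hk2 and Slc2a1 sit at the lower edge of the cloud near -1, while Pgam1, Pgk1, Aldoa and Ldha lie together between -0.56 and -0.71 among the abundant genes; 38 genes beyond 2.2 in either direction are not drawn.

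Genes of the HIF system itself were not called among the members. Hif1a, which encodes the widespread alpha subunit, had a log2FC of 0.27 (SE 0.21, adjusted p 0.452; authors' deposited table). Epas1, the gene of the second alpha subunit HIF-2α, was near undetected, with a mean normalized count of 0.246 in the authors' deposited table. The prolyl hydroxylase genes Egln1 and Egln3, of which Egln3 is strongly induced by HIF, had log2FC values of -0.28 (adjusted p 0.446) and -0.21 (adjusted p 0.714; authors' deposited table). HIF activity is set mainly by protein stability, which these transcript levels do not show.

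Outside glycolysis, 1 of 6 tested hypoxia-responsive members fell, against 4.74% of all tested genes, a count too small to read as a result about them. Bnip3, the gene of a mitochondrial receptor for removal of mitochondria by autophagy, was at 60.0% of its control level, with a log2FC of -0.74 (SE 0.25, adjusted p 0.0390; authors' deposited table). Vegfa, the angiogenic factor gene, was not called, with a log2FC of 0.07 (SE 0.27, adjusted p 0.920; authors' deposited table). The vasodilator peptide gene Adm was also not called, with a log2FC of 0.02 and a wide standard error of 0.34 (adjusted p 0.982; authors' deposited table). The stress-responsive gene Ndrg1 had a log2FC of 0.14 (adjusted p 0.813) and the ankyrin repeat gene Ankrd37 one of -0.13 (adjusted p 0.884; authors' deposited table). Ddit4, whose product Redd1 restrains mTORC1 in hypoxia and other stresses, had the highest fold change of the set without a call, at 0.50 (SE 0.22, adjusted p 0.125) as log2 in the authors' deposited table. Car9, a carbonic anhydrase gene used as a marker of hypoxic tissue, had a mean normalized count of 1.50 in the authors' deposited table.

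On a list of other HIF targets, without the members, 3 of 33 tested genes rose and 4 fell. These are 9.09% and 12.1%, against 6.15% and 4.74% of all tested genes, counts too small to read as a result about the list, and the median log2 fold change was -0.12 in the authors' deposited table. Angptl4, the gene of a secreted inhibitor of lipoprotein lipase, rose most, to 414% of its control level (log2FC 2.05, SE 0.35 and adjusted p 3.57e-07) in the authors' deposited table. Bhlhe40, a transcriptional repressor gene, rose by 0.82 and Lox, the gene of a collagen crosslinking enzyme, rose by 0.81 as log2 in the authors' deposited table, with adjusted p of 0.00431 and 0.00485. Anln, the gene of the cytokinesis protein anillin, and Gbe1, that of the glycogen branching enzyme, fell by 0.93 (adjusted p 0.0178) and 0.92 (adjusted p 0.0386) as log2 in the authors' deposited table. Stc2, which encodes a stanniocalcin, fell by 0.88 (adjusted p 0.0163) on that scale of the authors' deposited table, and the fourth to fall was Fam162a.

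Among 13 tested regulators of HIF, 2 rose and 1 fell. These are 15.4% and 7.69%, against 6.15% and 4.74% of all tested genes. The counts are too small to read as a result about the regulators as a group. Vhl, the gene of the ligase subunit that binds hydroxylated HIF alpha, rose by 0.70 on a log2 scale (SE 0.21, adjusted p 0.0110; authors' deposited table). Arnt2, a paralogue of the Arnt subunit, rose by 0.62 on a log2 scale (SE 0.21, adjusted p 0.0358; authors' deposited table). Cited2, the gene of an inhibitor that competes with HIF for the coactivators Crebbp and Ep300 and is itself induced by HIF, fell by 0.68 on a log2 scale (SE 0.23, adjusted p 0.0358; authors' deposited table). Myc, the growth regulator that shares many glycolytic targets, was not called, with a log2FC of -0.77 (SE 0.29, adjusted p 0.0621; authors' deposited table).

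Calls in pathways next to glycolysis were few, and the lists are too small to read these counts as a result about them. Among all tested genes, 6.15% rose and 4.74% fell. At an unadjusted p under 0.05, 1426 of the 17478 genes with a p-value were higher and 1399 lower. None of 7 tested genes of the pentose phosphate pathway was called by the authors' adjusted p, 1 was lower at an unadjusted p under 0.05, and in the authors' deposited table the median log2 fold change was -0.28. Of 31 tested genes of pyruvate entry and the TCA cycle, 1 rose and none fell, with 2 higher and 3 lower at an unadjusted p under 0.05. The gene that rose was Idh1, the cytosolic NADP-dependent isocitrate dehydrogenase, by 0.99 (SE 0.22, adjusted p 0.000271) as log2 in the authors' deposited table. Among 16 tested side enzymes and other isoforms of glycolysis, none was called, and 1 was higher at an unadjusted p under 0.05. The median was -0.12 for the TCA cycle list and -0.02 for the side enzymes in the authors' deposited table, and the differences between lists were not tested.

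Genes of DNA replication and some cyclin genes fell in the same comparison. Of 12 tested proliferation genes, 9 fell, against 4.74% of all tested genes, and none rose, also at an unadjusted p under 0.05, with a median log2 fold change of -0.80 in the authors' deposited table. The genes that fell were Mcm2 to Mcm7, Pcna, Ccna2 and Ccnd1. They include the replication helicase gene Mcm3 at -1.03 and the cyclin D1 gene Ccnd1 at -0.89 in the authors' deposited table. Mki67, Top2a and Ccnb1 were not called, with log2FC values of -0.47, -0.47 and -0.40 (adjusted p 0.278, 0.354 and 0.455; authors' deposited table). Whether the state of growth moved the glycolytic genes was not tested.

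**Figure D3:**
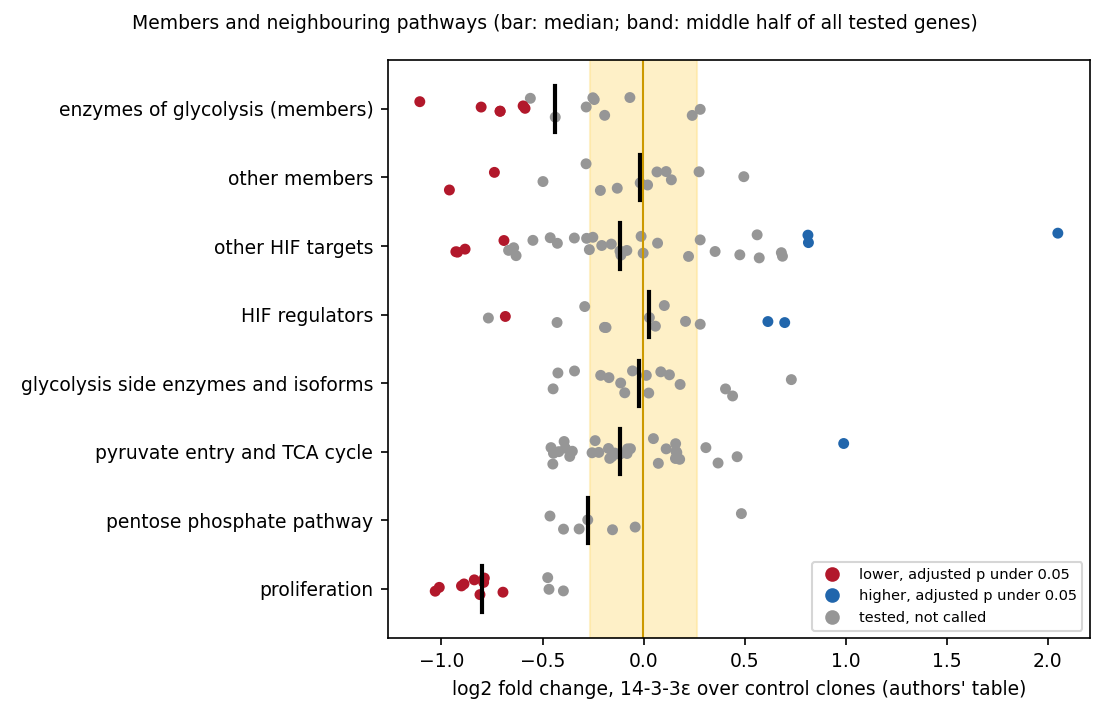
Log2 fold change, 14-3-3ε over control clones, of the tested genes in each list, one point per gene, red where lower and blue where higher at an adjusted p under 0.05, with the list's median as a black bar. The yellow band spans the first to the last quartile of all tested genes, -0.27 to 0.26. The 15 glycolytic enzymes and the proliferation genes have medians left of the band, at -0.44 and -0.80, as has the pentose phosphate list at -0.28; the row of other members holds the 13 tested members that are not enzymes of the chain.

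Cytosines around the gene starts were listed for most members, and few were called. A start window spans 1000 bp on each side of each annotated start in the RefSeq promoter table, which had 45 starts for 31 members and none for Epas1, Ndrg1 and Slc2a3. Windows of 28 members held 2441 listed cytosines, and those of Ldhb, Ankrd37 and Car9 held none. At the authors' q under 0.05, 23 cytosines were lower and 29 higher in 14-3-3ε clones, 0.942% and 1.19% of those listed. In the start windows of all genes 1.98% were lower and 1.49% higher, and the difference between members and all genes was not tested. The mean difference was -0.280 percentage points in member windows and -0.257 in all windows, both averages of the authors' deposited table. The sign of the member mean rests on Pfkfb3, without which it was 0.150 over 2243 cytosines of the authors' deposited table, and the mean of the members was -0.756 in the stretch from 250 bases before to 50 after the start and -0.120 within 2000 bp. The window mean lay within 1 point of 0 for 22 of the 28 members.

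Around the starts of the 8 genes that fell in expression, the windows held 679 listed cytosines, of which 1.91% were called, 5 lower and 8 higher, and the other members' windows held 1762, of which 2.21% were called, 18 lower and 21 higher. The mean difference was 0.0795 points for the genes that fell and -0.419 for the other members, from the authors' deposited table. Without Pfkfb3, the other members' windows held 1564 cytosines, of which 1.79% were called, and averaged 0.181 points in the authors' deposited table, so both orders turn on that gene. Ldha, Pgam1, Pfkl and Bnip3 had 86, 114, 72 and 29 listed cytosines and no call. Slc2a1 had 2 higher calls among 130 listed, both strands of 1 CpG in the 250 bases before the start, at positions 119108511 and 119108512 of chromosome 4, where the authors' deposited table gave differences of 18.4 and 24.0 points. This CpG lies within the Slc2a1 stretch printed above, outside its capital letters. Hk2 had 4 higher and 1 lower call among 111 listed, of which 3 higher ones sat 400 to 407 bp after the start at positions 82774047, 82774048 and 82774054 of chromosome 6, inside the gene. Their differences were 11.1, 13.7 and 13.1 points in the authors' deposited table, and the whole window averaged 0.0453 points.

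The core letters of the hypoxia response element could be read directly in some promoters, since the CpG in the core is a possible site of methylation, and methylation there is known to hinder HIF binding. In stretches from 250 bases before to 50 after the start, searched on both strands for ACGTG and GCGTG, 28 of 31 members had a match, which is 90.3%, against 46.7% of all 27025 genes in the promoter table. The lacking members were Eno2, Gpi1 and Tpi1. Member promoters are CpG-rich, with a median of 20 CpGs against 7 over all stretches. Among stretches with at least 10 CpGs, 85.7% of 35 member stretches and 68.4% of all 14281 had a match. ACGTG on both strands at once makes CACGTG, the E-box bound by Myc and its partners, which was present in 6 members (Bnip3, Hif1a, Ldha, Pfkfb3, Pfkm and Slc16a1), 19.4% against 8.09% of all genes. CACGTG also holds a CpG, and its shares were not compared among stretches of like CpG number. A match is no proof of binding.

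Inside these matches 39 cytosines were listed, in 11 members, and none was called, with a smallest q of 0.277 in the authors' deposited table. Of the genes that fell, Slc2a1, Ldha, Pfkl and Pgam1 had 15 such cytosines, and their differences lay between -1.21 and 1.96 points in the authors' deposited table. In the Ldha stretch printed above, 6 cytosines lay in the cores, which begin at -145, -48 and -34 from the start, with differences between -0.866 and 1.06 points in the authors' deposited table. For Slc2a1 the 4 core cytosines ranged from 0.502 to 1.96 points in the authors' deposited table. The Hk2 and Bnip3 cores had no listed cytosine, so nothing can be said of methylation at them.

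Pfkfb3 stood apart among the windows in its mean methylation difference. That mean, -5.16 points, was the lowest of the 28 windows, an average of the authors' deposited table. The gene had 6 lower and 5 higher calls among 198 listed cytosines around its 2 starts. That share of 5.56% did not set it apart, as 6.67% of 30 were called for Pfkp and 5.0% of 120 for Egln1. Around the start at position 11553929 of chromosome 2, on the minus strand, the 52 cytosines listed in the stretch from 250 bases before to 50 after averaged -10.6 points in the authors' deposited table. Of these, 4 were called, 2 in each direction, with differences from -39.4 to 26.1 points in the authors' deposited table. The largest single fall of all member windows also lay here, at position 11553628, 301 bp after that start, with -51.2 points in the authors' deposited table. Coverage is not given, so the depth behind these large and mostly uncalled differences is unknown. Expression of Pfkfb3 was not called, as given above.

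Other members had scattered calls. Ddit4 had 4 lower calls and 1 higher among 143 listed cytosines, all 5 upstream of the start between positions 59952327 and 59952732 of chromosome 10, with the lowest at -30.1 points in the authors' deposited table. Egln1 had 4 higher calls and 2 lower among 120 listed, and the 4 higher ones sat 937 to 983 bp after the start. Pdk1 had 3 higher and 2 lower among 112, and Aldoa 3 lower and 1 higher among 107. In the poorly expressed Slc16a3, 2 of 116 listed were called, both higher and upstream of the start, at 21.2 and 36.3 points in the authors' deposited table.

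Over the whole spans of the 34 genes, 3873 cytosines were listed and 117 called, 53 lower and 64 higher, a share of 3.02% against 4.36% within the spans of all genes. The largest group of calls was in Slc2a3, on chromosome 6 from 122764928 to 122765024, where 6 were higher and 2 lower among 15 listed cytosines with a mean of 11.6 points in the authors' deposited table. In Pfkp, 6 of 17 listed cytosines from 6647320 to 6647431 of chromosome 13 were called. They lay inside the gene, between 1340 and 1451 bp after the start. All 6 were higher, by 11.3 to 21.5 points, and the 17 averaged 10.5 points in the authors' deposited table. Car9 had 5 lower calls among 11 listed cytosines from 43508772 to 43508909 of chromosome 4, inside the gene. The 5 had differences from -31.5 to -13.6 points, and the 11 averaged -10.7 points in the authors' deposited table. Positions are given relative to whole genes, since the gene table used here marks neither exons nor introns.

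**Figure D4:**
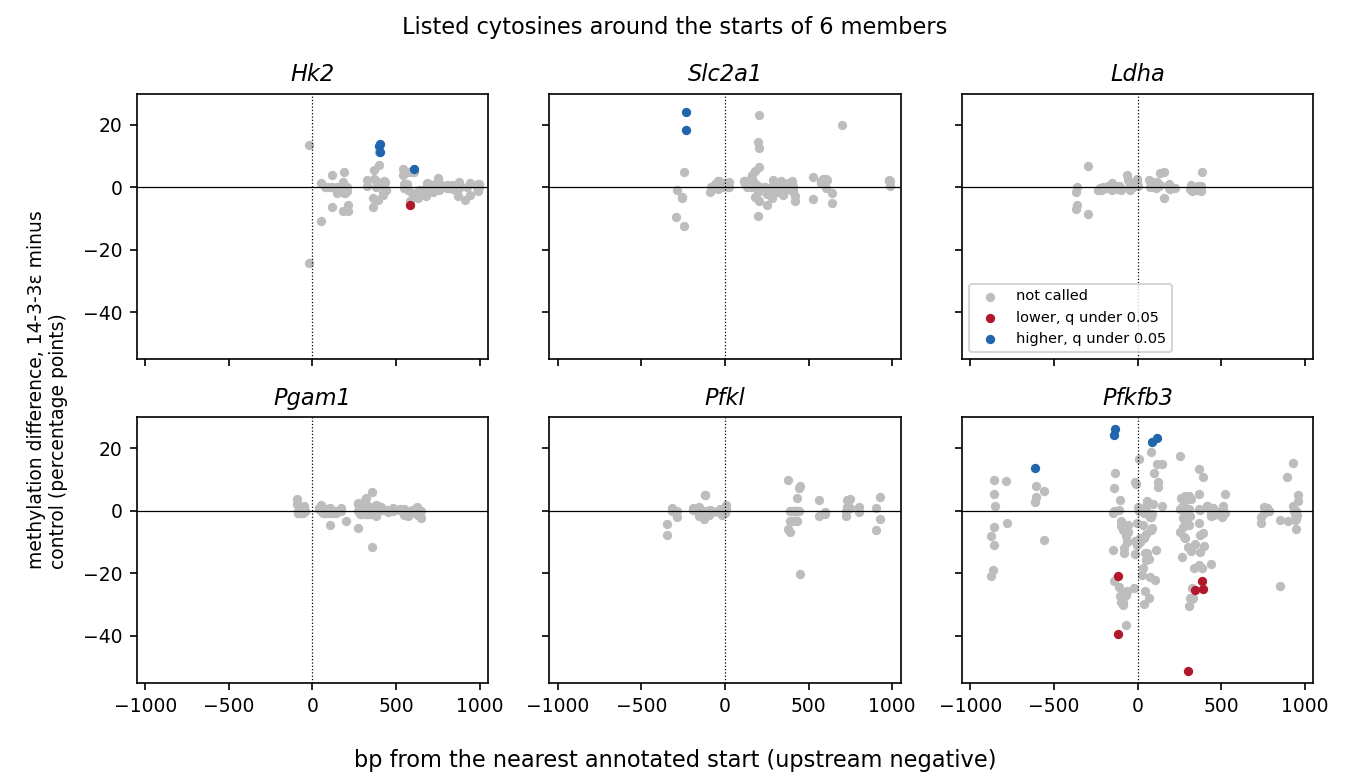
Methylation difference in percentage points, 14-3-3ε minus control clones, of each listed cytosine against its distance from the nearest annotated start, for 5 genes that fell in expression and for Pfkfb3; red points were lower and blue points higher at q under 0.05. Around the starts of Ldha, Pgam1 and Pfkl no cytosine was called, while differences at Pfkfb3 reach -51.2 points.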

How the data were processed

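RNA-seq and RRBS of 2 clones labelled 14-3-3ε and 2 labelled control were each analysed from 1 table of the authors' comparison. Per the submitters' processing notes, Trim Galore, Bismark, Bowtie2, methylKit, TopHat2, HTSeq and DESeq2 were used with build mm10; their roles, versions and settings are not stated there. The authors deposited a mean signal, read as the mean normalized count, a log2 fold change with its standard error, a score equal to their ratio, and p-values with adjusted p-values. For RRBS they deposited p-values, q-values and a difference in percent methylation. Small log2 fold changes at low counts show moderation, so folds at low expression come out too small. Depth, coverage and pooling are unknown, so no counting interval is given. With pooled reads, q would not take account of the spread between clones.

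Members were counted at adjusted p under 0.05 across all genes. After removal of 253 duplicate lines, 2361680 cytosines were placed in windows with Python 3.11.15 and pandas 2.3.3. At 589 of 589 cytosines in member promoters the base matched RefSeq, which places the coordinates on that build. Members, lists and the naming rule (members called, the 4 nearest the threshold, the largest per list) were chosen with earlier results of these data known. Adjustment, windows and motif search were tested on simulated data.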

Additional observations from a re-analysis of the deposited data

How the results depend on the processing

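No member rose under any alternative tried for that count. The count of lower members was 4 at an adjusted p under 0.01 and 1, Hk2, with a 2-fold change required as well, against 8 as reported. It was 9 at an adjusted p under 0.1, 8 among genes with a mean normalized count of at least 100, and 6 with adjustment over all 17478 genes with a p-value, where Aldoa and Bnip3 had an adjusted p of 0.0588. For the 12 members followed singly under these last 2 changes of adjustment, 22 of 24 values stayed on their side of the threshold, and the exceptions were Aldoa and Bnip3. The counts of lower members are given without the share of all genes called under the same settings, so they cannot be set against it. The median log2 fold change ran from -0.44 for the enzymes alone, added after seeing the data, to -0.20 over all listed members.

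Cytosine counts in start windows followed the window and threshold. Lower calls were 2 in the stretch from 250 bases before to 50 after the start, 10 at q under 0.01 and 6 with 25 points required. Higher calls were 18 within 500 bp, 5 in that short stretch, 14 at q under 0.01 and 5 with 25 points required. The mean difference in start windows, -0.280 points as reported, was 0.150 without Pfkfb3, also added after seeing the data, and ran from -0.756 to -0.120 under the other windows and with 1 value per CpG. Calls within gene spans were 58 at q under 0.01, an alternative added after seeing the data. For these cytosine counts the shares over all genes under the same settings are not given, so the counts cannot be set against them. No paired analysis was possible because the tables hold no value per clone, and for the same reason no clone could be left out.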
